A study of Mus musculus with 12 samples.

Results

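RLTR9 and RLTR13 are long terminal repeats, the flanking parts of endogenous retroviruses of the mouse ERVK family. The data hold 36 repeat names of the ERVK family that begin with RLTR9 or RLTR13, of 283 ERVK names and 18538 repeat names in all. They were taken by a rule on family and name alone, which was set with earlier results of these data known. RLTR9 has 13 names and RLTR13 has 23, and each name pools the reads of all its copies in the genome.

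The samples were C57BL/6 preimplantation embryos at the 2-cell stage, aged 1.5 days post fertilization, with 6 libraries of total RNA in each of 2 groups. In the WT group (m+/p-) the oocyte was wild-type, and in the KO group (m-/p-) it was a Kdm4a knockout. Sperm of both groups was from Kdm4a knockouts, so WT embryos also lacked a working paternal allele. Kdm4a encodes a demethylase of histone H3. The labels place embryos in individual tubes without giving the number of embryos or of mothers behind a library, so p-values measure the spread between these libraries, which may in part be technical.

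A terminal repeat carries the promoter and transcription factor sites of its retrovirus, and solitary copies can act as promoters or enhancers of nearby genes. Copies of RLTR13D5 are known as enhancers in mouse trophoblast stem cells, and several RLTR9 subfamilies carry sites for pluripotency factors and act as enhancers in embryonic stem cells. In many mouse cells ERVK copies are kept silent by repressive histone H3 methylation. Those roles were described in other cells, and the reads measured here are RNA from any copy of a name, with no location.

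Total counts were between 7952526 in KO replicate 5 and 18902360 in WT replicate 4. No gene was counted, so neither the genotype nor other cell types could be checked by gene markers. MERVL-int, a retroviral marker of the 2-cell stage, had means of 66062 normalised CPM in WT and 32176 in KO, where CPM is a count scaled to one common library size, here with the TMM correction for composition. The tissue label therefore had its repeat marker in both groups. WT replicate 2 stood apart on the first principal component of all tested repeats (35.1, against -11.7 to 5.95 in the other libraries). It was also the highest WT library for 15 of the 35 members tested, so the log2 fold changes of RLTR9D, RLTR9F and RLTR13C1 are given without it too.

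The 36 names were a small part of the repeat RNA. Together they took between 0.211% and 0.274% of the counts of a library. RLTR9D, RLTR13D5 and RLTR13D6 held 28.0% of the members' counts on average over the libraries. RLTR9D, which marks the group, was the most counted RLTR9 name and was present in every library with at least 1651 counts. All other names except RLTR9A4 had at least 83 counts in each library. The files give no length or copy number, so levels of different names are shares of reads and not levels per copy. Names of similar sequence may share reads, which makes their separate levels uncertain.

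**Figure D1:**
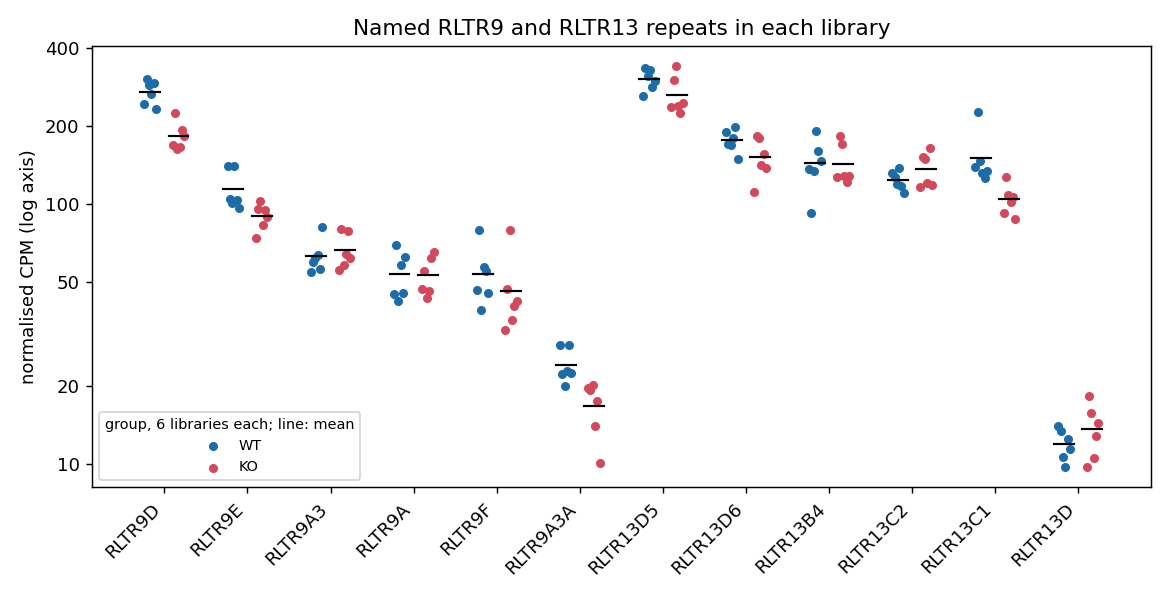
Normalised CPM (log axis) of 12 RLTR9 and RLTR13 names in each of 6 WT and 6 KO libraries; points are libraries and lines are means. The 6 KO points of RLTR9D lie between 164 and 226, below the WT points at 233 to 304, while the groups overlap for the other names shown.

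RLTR9D was lower in KO embryos and was the only member called. In WT it stood at 244, 304, 289, 267, 294 and 233 normalised CPM in replicates 1 to 6. In KO the 6 values were 169.5, 226, 164, 167, 193 and 184. The highest KO library therefore stayed below the lowest WT library. The means were 272 ± 28.7 in WT and 184 ± 23.4 in KO (n = 6, SD), a log2 change of -0.56 (standard error, SE, 0.10) and a 95% interval from -0.77 to -0.36 (edgeR quasi-likelihood test, Benjamini-Hochberg adjusted p = 0.0149 over 3312 tested repeats). Leaving out any single library kept the call (edgeR adjusted p from 0.00979 to 0.0480), and without WT replicate 2 the log2 fold change was -0.53 (edgeR adjusted p = 0.0280).

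In these bulk samples fewer cells with a transcript and less RNA per cell cannot be told apart. The fall of RLTR9D is relative to the typical repeat and depends on that scaling. The composition factors of the libraries ran from 0.767 to 0.977 in WT and from 0.978 to 1.26 in KO, so they separated the groups. With scaling by total counts alone the log2 fold change of RLTR9D was -0.26 and was not called (edgeR adjusted p = 0.106). That scaling moved the median log2 fold change of all tested repeats from 0.01 to 0.32 and those of the members by 0.28 to 0.34 each, so the order of the members changed little. What set the composition factors of the 2 groups apart was not tested.

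Among the 35 members tested, 1 was called lower, 0 higher and 34 were not called. Across all tested repeats 1.42% were called, 1.27% lower and 0.151% higher. The group overlap gave the same count: 1 member had all KO libraries below all WT libraries, against 1.39% of all repeats, and 0 had them all above, against 0.725%. At an unadjusted p under 0.05, edgeR had 5 members lower and 0 higher, against 7.91% and 5.5% of all repeats. DESeq2 called 2 members lower and 0 higher, with 4.86% and 1.58% of its repeats called, and limma-voom with quality weights called 1 lower and 0 higher (1.9% and 0.242% of its repeats). Negative log2 fold changes were found in 25 of the 35 members (71.4%), against 48.8% of all tested repeats and 67.4% of the tested ERVK names outside the members. The median was -0.08 for the members, 0.01 for all and -0.09 for the ERVK names outside the members. The members were thus close to the rest of their family. Under total-count scaling 31 members were positive and 4 negative: 21 turned from negative to positive and 0 the other way. A negative sign given below therefore holds across both scalings only for RLTR9D, RLTR9E, RLTR9A3A and RLTR13C1. Each of these changes was smaller in size on total counts. That fit called 1 member higher and 0 lower, against 10.8% and 0.996% of all repeats.

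**Figure D2:**
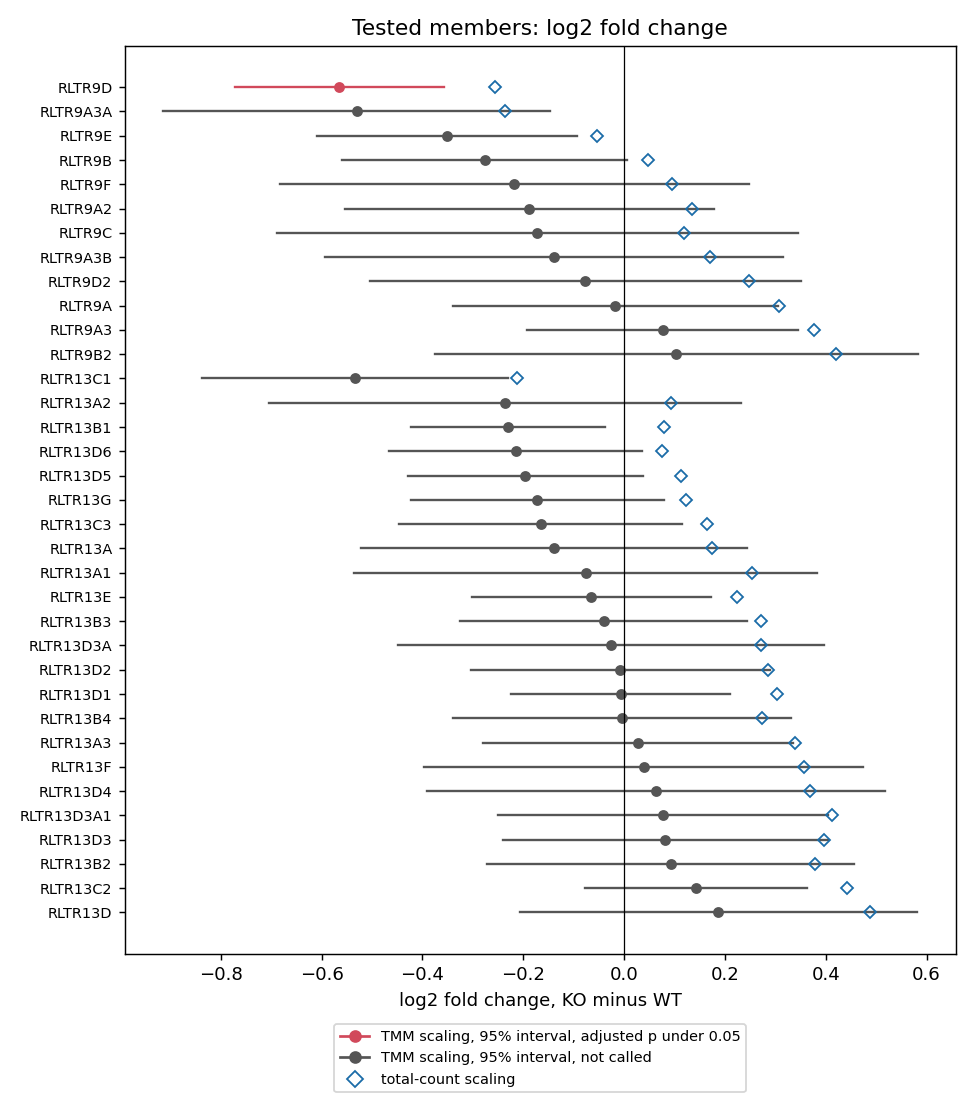
Log2 fold change, KO minus WT, of the 35 tested members, RLTR9 names above and RLTR13 names below; filled points with lines are edgeR estimates under TMM scaling with 95% intervals (red where the adjusted p was under 0.05) and open diamonds are total-count scaling. RLTR9D at -0.56 is the red point, and the diamonds lie 0.28 to 0.34 to the right of the filled points.

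Under TMM scaling, the intervals of the 34 members not called bound what these libraries could miss. All 34 lay within a log2 change of 1 in either direction, which is a fold of 2, and 19 lay within 0.5. The widest bounds were -0.91 and 0.58. Total-count scaling moved the estimate of each member up by 0.28 to 0.34, so these bounds hold for TMM scaling only. Of the 34, 4 had a TMM interval that left out 0 without passing the adjustment over all repeats. Leaving out 0 amounts to an unadjusted edgeR p under 0.05. At that level 7.91% of all tested repeats were lower in KO and 5.5% higher.

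RLTR9E was next in reads among the RLTR9 names. Its WT libraries ran from 96.6 through a median of 104 to 141 normalised CPM, and its KO libraries from 73.9 through 92.5 to 103. In 5 of the 6 KO libraries the value was below every WT library, and only KO replicate 3 overlapped. The log2 fold change was -0.35 (SE 0.12), which was not called (edgeR adjusted p = 0.171). Under total-count scaling it was -0.05 (edgeR adjusted p = 0.834).

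The 5 RLTR9A names tested had log2 fold changes from -0.53 to 0.08, and none was called. RLTR9A3A ran from 19.98 through 22.6 to 28.6 normalised CPM in WT and from 10.01 through 18.3 to 20.03 in KO. Its groups met only at their edges, and its log2 fold change of -0.53 was close to that of RLTR9D but less precise (SE 0.18, edgeR adjusted p = 0.166). Under total-count scaling the log2 fold change of RLTR9A3A was -0.24 (edgeR adjusted p = 0.470). RLTR9A3 ran from 55.0 through 61.0 to 81.8 in WT and from 55.7 through 63.3 to 80.1 in KO. Those ranges nearly coincided, with a log2 difference of 0.08 (edgeR adjusted p = 0.880) and a 95% interval from -0.19 to 0.35. RLTR9A had means of 53.9 ± 11.1 in WT and 53.2 ± 9.09 in KO (n = 6, SD), a log2 change of -0.02, with an interval from -0.34 to 0.30. Its sign turned under several settings, so it has no settled direction. RLTR9A2 and RLTR9A3B had log2 fold changes of -0.19 and -0.14.

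RLTR9A4, the remaining RLTR9A name, was too rare to test. Its counts were 4, 23, 1, 2, 4 and 15 in WT replicates 1 to 6 and 19, 15, 4, 7, 2 and 52 in KO replicates 1 to 6. The counts were uneven within both groups and showed no separation.

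RLTR9F ran from 39.0 through 51.1 to 79.4 normalised CPM in WT and from 32.8 through 41.4 to 79.4 in KO. The high values were WT replicate 2 and KO replicate 3, and the rest lay between 32.8 and 57.3. Its log2 fold change was -0.22 (edgeR adjusted p = 0.753), and it lay at -0.44 without KO replicate 3 and -0.08 without WT replicate 2. RLTR9D2, the closest name to RLTR9D, had means of 20.3 ± 4.24 in WT and 19.2 ± 5.30 in KO (n = 6, SD) and a log2 change of -0.08, with a 95% interval from -0.50 to 0.35. The log2 ratio of RLTR9D to RLTR9D2 counts within a library, chosen after the values were seen and not tested, was 3.77 ± 0.42 in WT and 3.29 ± 0.42 in KO (n = 6, SD), and it was below the WT median in 5 of 6 KO libraries. RLTR9B, RLTR9B2 and RLTR9C had log2 fold changes of -0.28, 0.10 and -0.17 and none was called.

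Of the RLTR13 names, 0 of 23 were called, against 1.42% of all tested repeats. At an unadjusted p under 0.05, edgeR had 2 lower and 0 higher, against 7.91% and 5.5% of all tested repeats. DESeq2 called 1 RLTR13 name lower, RLTR13C1, against 4.86% of its repeats. RLTR13D5, the name known for trophoblast enhancers, ran from 261 through 306 to 337 normalised CPM in WT and from 226 through 243 to 342 in KO. In 4 of 6 KO libraries it was below all WT libraries, while KO replicate 2 lay among the WT values and KO replicate 3 just above the highest of them. Its log2 fold change was -0.20 (SE 0.11) and a 95% interval from -0.43 to 0.04 (edgeR adjusted p = 0.467), and it was 0.11 under total-count scaling. RLTR13D6 had means of 176 ± 17.2 in WT and 152 ± 27.3 in KO (n = 6, SD) and a log2 difference of -0.21 (edgeR adjusted p = 0.459). It was 0.08 under total-count scaling, so neither name has a direction that holds across scalings.

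The other 7 RLTR13D names lay around 0, with log2 fold changes from -0.03 in RLTR13D3A to 0.19 in RLTR13D. RLTR13D, the least counted RLTR13 name, ran from 9.7 through 11.9 to 13.9 normalised CPM in WT and from 9.7 through 13.6 to 18.2 in KO. The ranges shared their lower end and the log2 fold change was not called (edgeR adjusted p = 0.748). RLTR13D1 had the narrowest interval of these 7, from -0.22 to 0.21.

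RLTR13C1 and RLTR13C2, which took similar shares of reads, had log2 fold changes of opposite sign. RLTR13C1 ran from 126 through 137 to 226 normalised CPM in WT and from 88.0 through 105 to 128 in KO. Only KO replicate 2 reached the WT range, and WT replicate 2 stood far above the other WT libraries. The log2 fold change was -0.53 (SE 0.14) (edgeR adjusted p = 0.0742). Without WT replicate 2 it was -0.39 (edgeR adjusted p = 0.0728), and it was called by DESeq2 (adjusted p = 0.0204) and without KO replicate 2 (edgeR adjusted p = 0.0462). Under total-count scaling it was -0.21 (edgeR adjusted p = 0.191).

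RLTR13C2 ran from 111 through 124 to 138 normalised CPM in WT and from 117 through 136 to 164 in KO. The groups overlapped, with a log2 change of 0.14 and a standard error of 0.10 (edgeR adjusted p = 0.614). Under total-count scaling it was the only member called, at 0.44 (edgeR adjusted p = 0.0142). The log2 ratio of RLTR13C1 to RLTR13C2 lay at 0.26 ± 0.31 in WT and -0.39 ± 0.14 in KO (n = 6, SD). Its WT values ran from -0.06 to 0.82 and its KO values from -0.62 to -0.25, with no overlap. The value of 0.82 was that of WT replicate 2, and the next highest WT value was 0.30 in WT replicate 3. This pair was chosen for its difference, so the ratio is a description with no test. RLTR13C3 lay between them, with a log2 change of -0.17.

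The 4 RLTR13B names had log2 fold changes from -0.23 in RLTR13B1 to 0.09 in RLTR13B2. RLTR13B4, the most counted of them, had means of 144 ± 33.0 in WT and 144 ± 26.2 in KO (n = 6, SD), a log2 change of -0.01 with a 95% interval from -0.34 to 0.33. Its lowest library was WT replicate 2 at 92.4 normalised CPM, where RLTR13C1 had its highest value. The 4 RLTR13A names ran from -0.24 to 0.03, and RLTR13E, RLTR13F and RLTR13G had -0.06, 0.04 and -0.17, none of them called.

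The reads were also summed by set. The RLTR9 rows summed to 697 ± 39.8 normalised CPM in WT and 561 ± 47.9 in KO (n = 6, SD), and KO stood at 80.5% of WT. The WT libraries ran from 660 to 759 and the KO libraries from 496 to 624, without overlap. Without RLTR9D the sums were 425 ± 32.2 and 377 ± 31.9, and the groups overlapped. The RLTR13 rows summed to 1841 ± 102 in WT and 1710 ± 192 in KO, with overlap. KO replicates 2 and 3, at 1946 and 1958, lay among the highest WT libraries.

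As shares of all counts the sums compared differently. The RLTR9 rows took 0.0627% ± 0.00518 in WT and 0.0625% ± 0.00546 in KO (n = 6, SD), and the RLTR13 rows took 0.166% ± 0.0136 and 0.190% ± 0.0165. The RLTR9 share was thus level between the groups while the RLTR13 share had a higher mean in KO, with overlap in both. Within the RLTR9 reads of a library RLTR9D made up 39.0% ± 3.41 in WT and 32.7% ± 2.38 in KO, with overlap. Within the RLTR13 reads RLTR13C1 made up 8.18% ± 1.67 and 6.11% ± 0.537, and here the groups did not overlap. For every other name among the 36, the groups overlapped in its share of its set. The WT mean of RLTR13C1 includes WT replicate 2, its highest WT library by normalised CPM. Sums over chosen names carry no test.

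**Figure D3:**
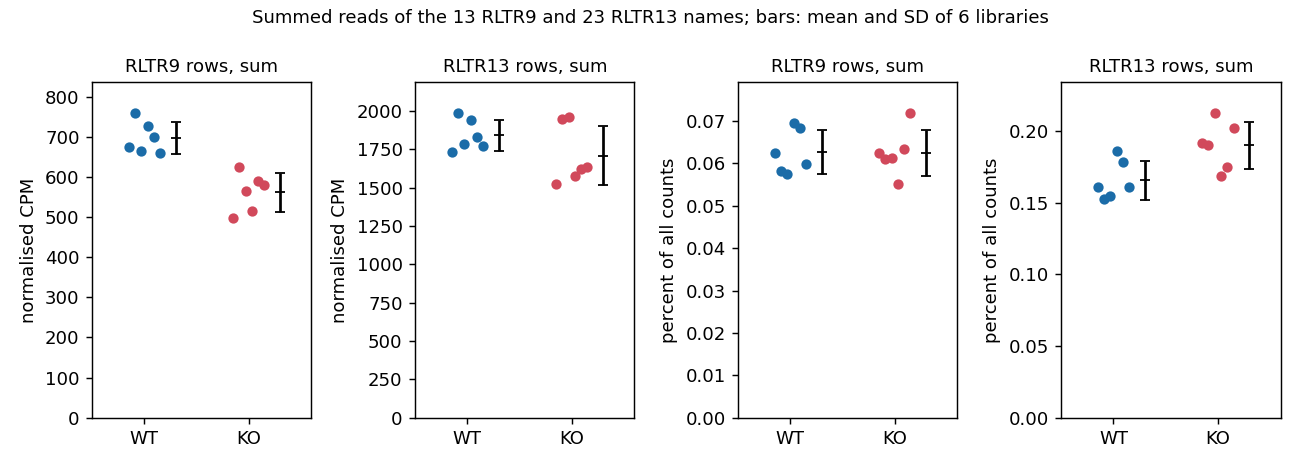
Summed reads of the 13 RLTR9 and 23 RLTR13 names in each library, as normalised CPM in the left pair of panels and as percent of all counts in the right pair; points are libraries and bars are the mean and SD of 6. The RLTR9 sums lie at 660 to 759 in WT and 496 to 624 in KO by normalised CPM, and overlap as percent of counts.

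Ratios of 2 names within a library need no scaling. The most counted name of each set was compared with MERVL-int, with IAPEz-int, the internal part of the ERVK retrovirus IAP, and with each other, in 5 tests. The log2 ratio of RLTR9D to RLTR13D5 was -0.16 ± 0.15 in WT and -0.52 ± 0.28 in KO (n = 6, SD), and all 6 KO libraries were under the WT median (exact permutation test, two-sided, p = 0.0108, adjusted p = 0.0271). RLTR9D was thus lower in KO relative to RLTR13D5. This ratio uses the same counts as the single-name tests above and was chosen with earlier results known, so it is not separate support. The call was lost without any 1 of WT replicates 1, 2 or 3 or KO replicates 1, 3 or 4 (exact permutation adjusted p from 0.0505 to 0.0541), and the difference was -0.25 without KO replicate 3, the library with the lowest ratio.

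The log2 ratio of RLTR13D5 to MERVL-int was -7.74 ± 0.26 in WT and -6.89 ± 0.44 in KO (n = 6, SD), a difference of 0.85 (exact permutation p = 0.00433, adjusted p = 0.0216). It was above the WT median in 6 of 6 KO libraries. MERVL-int was thus lower in KO relative to RLTR13D5. For RLTR9D the ratio to MERVL-int was -7.90 ± 0.34 in WT and -7.41 ± 0.41 in KO, and again 6 of 6 KO libraries were above the WT median. That difference of 0.49 did not pass (exact permutation p = 0.0519, adjusted p = 0.0866). Of the single libraries left out, only WT replicate 5, the WT library with the least MERVL-int, made it pass, at 0.62 (exact permutation adjusted p = 0.0108). Without any other single library it did not pass (exact permutation adjusted p from 0.0505 to 0.173). MERVL-int was known to be lower in KO in these data when it was chosen.

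Against IAPEz-int neither name differed beyond the spread. The log2 ratio of RLTR9D to IAPEz-int was -2.45 ± 0.32 in WT and -2.70 ± 0.26 in KO (n = 6, SD; exact permutation p = 0.175, adjusted p = 0.219). That of RLTR13D5 was -2.29 ± 0.20 and -2.18 ± 0.36 (exact permutation p = 0.489, adjusted p = 0.489). IAPEz-int itself differed by -0.30 on the log2 scale (edgeR adjusted p = 0.380).

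**Figure D4:**
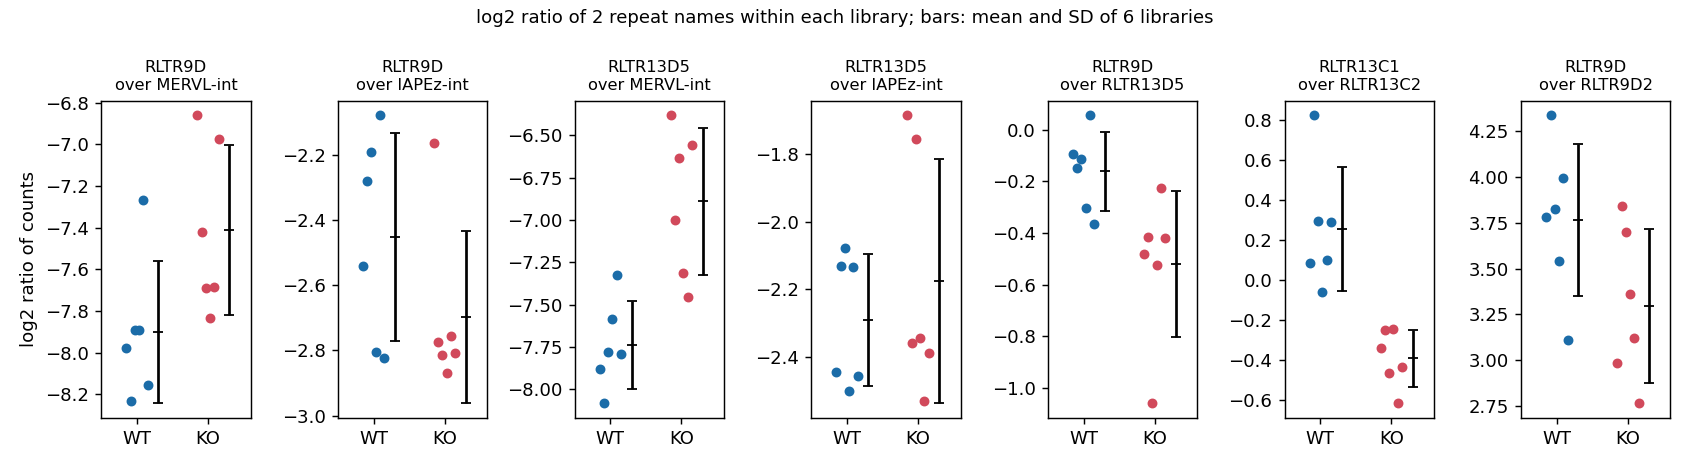
Log2 ratio of the counts of 2 repeat names within each library (vertical axes differ between panels), for 6 WT and 6 KO libraries; bars are the mean and SD, and the 2 panels on the right were chosen after the values were seen. RLTR9D over RLTR13D5 has a mean of -0.16 in WT and -0.52 in KO, and RLTR13C1 over RLTR13C2 does not overlap between the groups.

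Other ERVK names give the setting for these values. Of the 12 RLTR9 names tested, 1 was called lower (median log2 fold change -0.18), and of the 23 RLTR13 names 0 (median -0.03). Of 25 IAP names 2 were called lower (median -0.34), of 15 MMERVK and RLTR10 names 0 (median -0.25) and of 5 ETn and MusD names 0 (median -0.22). Of the 194 other ERVK names tested, 4 were called lower and 1 higher (median -0.04). Across all tested repeats 1.27% were called lower. At an unadjusted p under 0.05, edgeR had 3 RLTR9, 2 RLTR13, 12 IAP, 6 MMERVK and RLTR10, 1 ETn or MusD and 34 other ERVK names lower, against 7.91% of all tested repeats. At that level 13 of the other ERVK names and 0 in the remaining lists were higher, against 5.5% of all. The difference between RLTR9 or RLTR13 and these lists was not tested.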

How the data were processed

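Total RNA of 12 libraries was analysed from the deposited estimated counts of reads per repeat name. The submitters' processing notes name the mm10 build, Trimmomatic 0.32 and edgeR; the sources used here do not state the aligner, repeat annotation, counting program or use of strand. The deposited counts were whole numbers and were used as they are; rounding by the authors is possible. Reads of genes that carry a repeat can be counted in it.

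All repeats were tested together with edgeR 4.0.16 in R 4.3.3 (filterByExpr, TMM, quasi-likelihood F test, genotype as the only term, Benjamini-Hochberg, threshold 0.05); 3312 rows were tested, 35 of them members. RLTR9A4 did not pass the filter. Standard errors come from the F statistic and intervals from its degrees of freedom. Within-library ratios used exact permutation tests over 924 regroupings (scipy 1.17.1), adjusted over 5. DESeq2 1.42.0 and limma 3.58.1 were alternatives.

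Groups and replicate numbers are those of the sample titles; names given to some deposited files carry other numbers. No 2 libraries of a group agreed within sampling noise (chi-square per degree of freedom from 26.2 to 154 over 30 pairs). Members named singly were called ones, the 5 most counted of each set, RLTR9D, the 3 with the smallest p, and the highest and lowest fold change at a mean normalised CPM of 10 or more; RLTR9D2, RLTR13D1 and others were added after their values were seen. Members, lists and tests were chosen with earlier results of these data known.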

Additional observations from a re-analysis of the deposited data

Results flagged for a closer look

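In 38 groups of 6 values looked at, 6 held 1 value far from the rest (a gap past Dixon's 95% critical value); chance alone gives about 1 in 20. RLTR9A3 was at 81.8 normalised CPM in WT replicate 6, RLTR9F at 79.4 in KO replicate 3 and RLTR13C1 at 226 in WT replicate 2. The log2 ratio of RLTR9D to MERVL-int was -7.27 in WT replicate 5, that of RLTR9D to IAPEz-int was -2.16 in KO replicate 1, and that of RLTR9D to RLTR13D5 was -1.06 in KO replicate 3.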

How the results depend on the processing

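The call of RLTR9D held under 9 of 10 other settings (log2 fold change from -0.58 to -0.53) and without each single library (-0.63 to -0.53); total-count scaling gave -0.26. The count of members called was 2 with DESeq2 and 2 with the replicate block, where RLTR13C1 was the second (-0.51, edgeR adjusted p = 0.0433 with the block), and 1 to 2 without single libraries. The count over all repeats, 47, was 390 with total counts, 163 with DESeq2, 71 with limma-voom, 18 with no filter and 23 without both WT replicate 2 and KO replicate 5, and ran from 19 to 93 without single libraries. On total counts the log2 ratio of KO to WT was -0.0035 for the RLTR9 sum and 0.20 for the RLTR13 sum, against -0.31 and -0.11. With the replicate block (sign flips of 6 pairs, smallest p 0.03125), the ratios of RLTR13D5 to MERVL-int (0.85) and of RLTR9D to RLTR13D5 (-0.36) had an adjusted p of 0.156 each. Deviations from the group mean had a correlation over 0.1 in 1 of 6 same-numbered pairs (range -0.06 to 0.19). The number is therefore not taken as a pairing. Without single libraries the 5 ratios ranged from 0.38 to 0.62 (RLTR9D to MERVL-int), 0.75 to 0.96 (RLTR13D5 to MERVL-int), -0.42 to -0.25 (RLTR9D to RLTR13D5), -0.35 to -0.17 (RLTR9D to IAPEz-int) and 0.02 to 0.19 (RLTR13D5 to IAPEz-int). On total counts 21 of 35 members turned from negative to positive. Among the members named by rule, signs turned, none called, for RLTR9A (0.31 on total counts, 0.018 with upper quartile, 0.0011 with limma-voom, 0.021 without both libraries, and -0.086 to 0.067 without single ones), RLTR13B4 (0.27 on total counts, 0.025 with upper quartile, 0.00020 with TMM without simple repeats, 0.0095 with no filter, 0.0056 with the replicate block, and -0.11 to 0.10 without single libraries), RLTR9F (0.10), RLTR13D5 (0.11) and RLTR13D6 (0.076), the last 3 on total counts; their cause beyond the scaling was not tested. Low counts limit rare names such as RLTR9A4.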

Other observations

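RLTR9D and RLTR13D5 were also set against MERVL-int from library to library within each group, in 6 relations chosen after the values were seen and computed on log2 normalised CPM. For RLTR9D and MERVL-int, Pearson's r was 0.132 in WT (exact permutation p = 0.818, n = 6) and 0.348 in KO (exact permutation p = 0.499, n = 6), with Spearman's rho of 0.257 and 0.486 (exact permutation p = 0.658 and 0.356). For RLTR13D5 and MERVL-int, r was 0.633 in WT and 0.263 in KO (exact permutation p = 0.172 and 0.661) and rho 0.771 and -0.143 (exact permutation p = 0.103 and 0.803). For RLTR9D and RLTR13D5, r was 0.474 in WT and 0.081 in KO (exact permutation p = 0.333 and 0.890) and rho 0.486 and -0.257 (exact permutation p = 0.356 and 0.658). Without the 2 libraries farthest from the median of the x measure, r was 0.462 and 0.605, 0.524 and -0.800, and -0.128 and -0.463 for the 3 pairs in WT and KO. After adjustment over the 6 relations the exact permutation p was 0.890 for each r and at least 0.617 for each rho, so none passed. With 6 libraries only a strong relation could have passed.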
